A study of Homo sapiens with 4 samples.

Results

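Expression of 42 genes of the actin cytoskeleton, many of them known targets of the transcription factor SRF, was compared between sorted populations of PLC8024 cells. PLC8024 is an established human hepatocellular carcinoma line, and flow cytometry had separated its cells into a population with CD133 on the surface and one without it. CD133, encoded by PROM1, is a membrane protein by which tumour-initiating cells of liver cancer are enriched. The labels name no treatment, genotype or time, and both populations come from the same line, so the sort is the only difference they give. Each population was deposited in 2 processings of oligonucleotide array values, linear MAS5 intensities and log2 RMA values, which makes 4 samples with 1 array value per population and processing. No replicate exists, so the spread between cultures or sorts is unknown, no test was run, and precision is limited by the number of arrays.

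The genes were chosen by name with earlier results of these arrays known. A gene is represented by the probe set, the group of oligonucleotides that reads 1 transcript region, with the highest mean RMA value among those that the platform annotation assigns to that gene alone. The selection used the difference between the populations, so that difference is a description here. Of the 42 genes, 39 had such a probe set, out of 19775 genes on the array, and TPM3, FLNA and FLNC were not analysed here. To be above the floor, a gene had to reach the median of an RMA column, 5.16 in CD133+ or 5.14 in CD133-, in whichever population had its higher value. This held for 36 of the 39 genes, while ACTG2, CNN1 and MYLK were below it. Genes above the floor were counted as different where RMA and MAS5 both gave a difference of 2-fold or more with the same sign.

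Actin filaments give cells shape and pull on their attachments. Myosin II motors slide them when the regulatory light chain is phosphorylated, tropomyosins, calponins and caldesmon control access to the filament, and vinculin, talin, zyxin and paxillin tie filament ends to integrins. Many of these genes carry CArG boxes, the binding motif of SRF. SRF acts with the MRTF coactivators, which are held in the cytoplasm by free actin monomers, or with ternary complex factors such as ELK1, which respond to ERK signalling. Smooth muscle and activated stellate cells express the contractile members ACTA2, TAGLN and CNN1 strongly, whereas epithelial cells mostly use the non-muscle forms.

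Promoter windows were taken from RefSeq on build GRCh38.p14, from 250 bases before to 50 bases after a transcription start, 300 bases in all, and 38 of the 42 genes matched. The table used here has no entry for MYL9, TAGLN, VIL1 and PFN2. The motif searched was the CArG box in its strict form, CC, then 6 letters that are A or T, then GG, which reads the same way on both strands. It was found in 7 of 72 windows of these genes (9.72%) and in 454 of all 35116 windows (1.29%). By gene this was 7 of 38 (18.4%), against 1.60% of all 27305 genes. SRF targets were among the reasons for choosing the genes, so this higher share is not independent of the choice. The 6 genes with a match other than FLNA are shown because they set the sequence beside the expression values that follow. Each line gives 30 bases, 5′ to 3′, with the CArG boxes in capitals. The SRF promoter has 2 of them directly before its start, and ACTG2 has 2 farther upstream.

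SRF, chr6:43171239-43171268, plus strand: CCATATAAGGagcggcctcgCCATAAAAGG
ACTG2 upstream box, chr2:73892888-73892917, plus strand: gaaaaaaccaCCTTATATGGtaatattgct
ACTG2 downstream box, chr2:73892925-73892954, plus strand: cgtcagctggCCTTTTTAGGgactttgttt
MYLK, chr3:123620623-123620652, minus strand: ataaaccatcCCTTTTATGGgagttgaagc
CNN2, chr19:1026509-1026538, plus strand: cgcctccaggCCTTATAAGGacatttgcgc
TPM4, chr19:16067355-16067384, plus strand: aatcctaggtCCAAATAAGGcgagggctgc
ACTN1, chr14:68977718-68977747, minus strand: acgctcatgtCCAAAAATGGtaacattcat

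CSRP1, the gene with the largest difference below, has 3 windows in the table and none of the 3 holds the strict motif, which says only that these letters are not in these windows. The 250 bases before its most upstream start are shown because the gene leads the result.

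CSRP1, chr1:201507124-201507373, minus strand: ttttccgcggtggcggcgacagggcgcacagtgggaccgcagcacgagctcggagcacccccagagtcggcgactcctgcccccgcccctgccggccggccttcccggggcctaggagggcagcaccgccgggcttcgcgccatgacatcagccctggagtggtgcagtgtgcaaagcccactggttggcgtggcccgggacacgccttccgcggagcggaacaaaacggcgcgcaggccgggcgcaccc

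CSRP1 and MYL9 were counted as higher in CD133+, and no gene of the set was counted as lower. The 2 genes are 5.56% of the 36 above the floor, and the shares over all 13116 genes above the floor were 2.25% counted higher and 1.09% counted lower. Because the genes were chosen on this contrast, nothing is read from that comparison. The other 34 genes had RMA differences, CD133+ minus CD133-, from -0.72 to 0.50 on the log2 scale. The median difference over the 36 genes was 0.09 in RMA and 0.25 in MAS5, against 0.00 and 0.0049 over all genes above the floor. A difference above 0 in RMA was found in 21 of the 36 (58.3%), against 48.2% of all genes. Differences smaller than 0.5 in either direction made up 31 of the 36 (86.1%) and 84.8% of all genes, so most of the actin genes lay as close to 0 as most genes of the array.

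**Figure D1:**
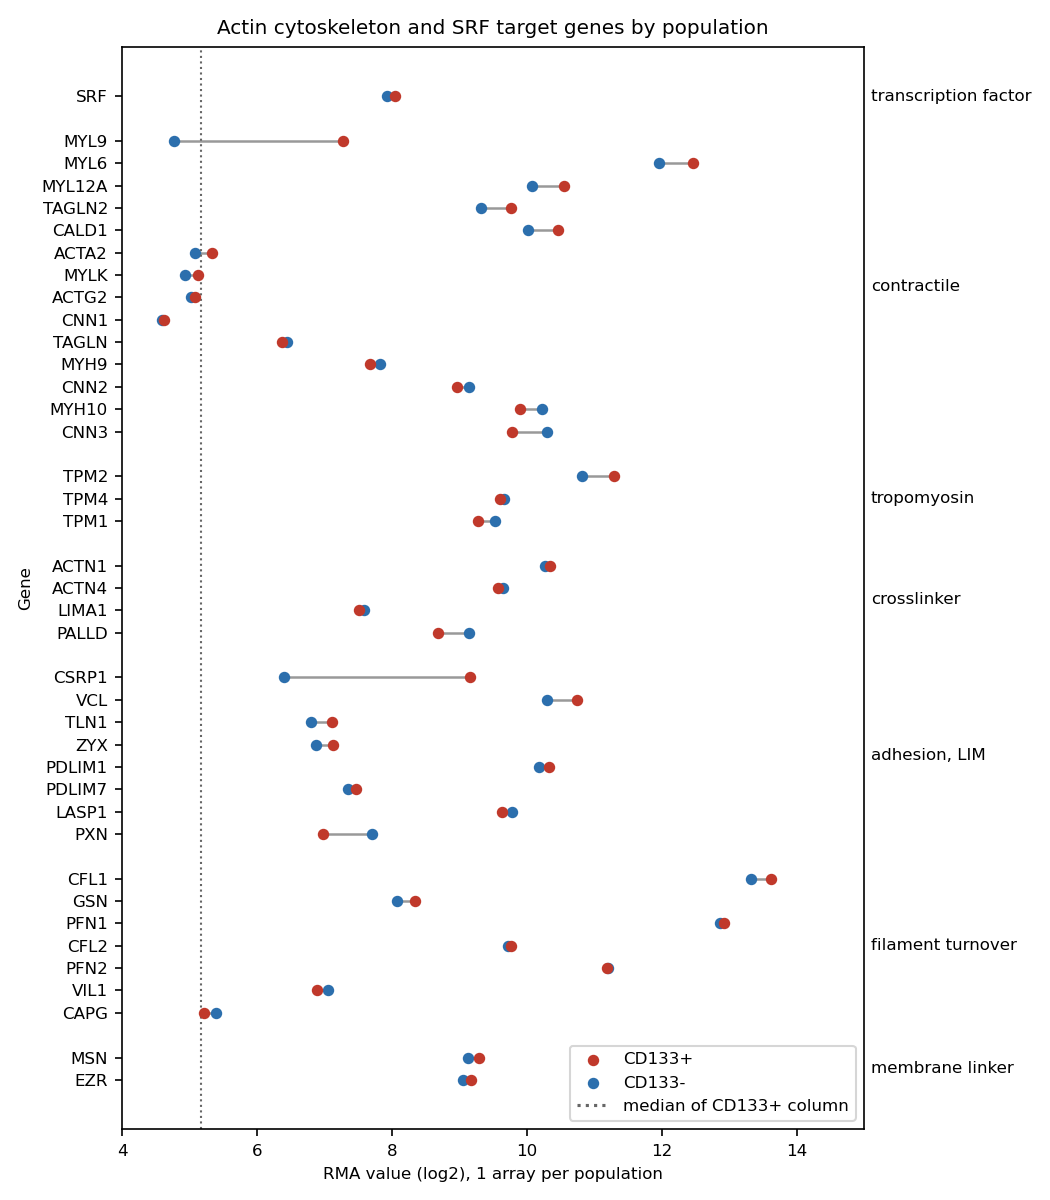
RMA values (log2, horizontal axis) of the 39 measured genes, grouped by role, with 1 point for each population joined by a line and a dotted line at the median of the CD133+ column, 5.16. MYL9, at 7.27 against 4.76, and CSRP1, at 9.15 against 6.40, have long lines, and PXN, at 6.97 against 7.69, is the widest apart of the other genes.

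CSRP1 encodes a LIM-domain protein that binds alpha-actinin and zyxin and bundles actin filaments. Its RMA value was 9.15 in CD133+ and 6.40 in CD133-, and its MAS5 intensity was 2224 and 287.0. It was thus high in the CD133+ population and above the floor in both. The difference was 6.75-fold in RMA and 7.75-fold in MAS5, at rank 27 by RMA difference among the 13116 genes above the floor. The array has 1 probe set assigned to CSRP1 alone, so no further probe set checks it. Its close relative CSRP2, another LIM protein of the same family, had RMA values of 11.09 and 10.32, a difference of 0.77 in RMA and 0.97 in MAS5, which misses the count rule in both. The difference of CSRP1 was known when the genes were chosen, and its contrast with CSRP2 was not tested.

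MYL9 encodes the regulatory light chain of smooth muscle and non-muscle myosin II. Its RMA value was 7.27 in CD133+ and 4.76 in CD133-, and its MAS5 intensities were 703.0 and 34.22. The CD133- value was below the median of its column, so MYL9 passed the floor only through CD133+ and no fold is given. The differences between the deposited values, 2.51 in RMA and 4.36 in MAS5, rest on that value below the floor and are not exact sizes. A second probe set of MYL9 had RMA values of 5.69 and 5.15, a difference of 0.54, with MAS5 intensities of 84.66 and 59.84. Both probe sets were thus higher in CD133+, and they differed from each other by 1.97. Taken over 6170 genes with a pair of probe sets above the floor, the gap between the RMA differences of the pair had an SD of 0.35, and its 95th percentile in absolute size was 0.70. The 2 probe sets of MYL9 therefore disagree in size by more than is usual on this array. The second lay near the floor, at 5.15 in CD133- against a floor of 5.14. Its MAS5 intensities were below the column medians of 86.02 in CD133+ and 86.13 in CD133-, so its difference is no exact size either.

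The other myosin light chain genes had smaller differences. MYL6 encodes the essential light chain of smooth and non-muscle myosin, and its RMA values were 12.46 in CD133+ and 11.95 in CD133-. The difference was 0.74 in MAS5 and 0.50 in RMA, where it came next after CSRP1 and MYL9, and the other probe set of MYL6 had a difference of -0.20. MYL12A encodes a non-muscle regulatory light chain very like the product of MYL9. Its RMA values were 10.55 and 10.07, a difference of 0.48, but its 4 probe sets ran from -0.76 to 0.48. MYL12B, its neighbour and near copy, had a difference of 0.04, and the probe set that the annotation assigns to both MYL12A and MYL12B had one of 0.23. These light chain genes are similar in sequence, so a probe set of one may pick up RNA of another, which was not tested.

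MYLK encodes the kinase that phosphorylates the regulatory light chain. The probe set that represents it had RMA values of 5.11 for CD133+ and 4.93 for CD133-, and both are below the floor. A probe set with a slightly lower mean had 5.39 and 4.20, and its MAS5 intensities were 264 and 84.15. Its differences of 1.18 in RMA and 1.65 in MAS5 would pass the count rule, but this probe set too passed the floor only through CD133+, so their size is not exact. The remaining 3 probe sets of MYLK, all below the floor, had RMA differences from -0.22 to 0.18. Whether MYLK is counted therefore depends on the probe set that stands for it. The heavy chains of non-muscle myosin II had values on the other side of 0 in RMA. MYH10 had RMA values of 9.89 and 10.22, a difference of -0.33, with its second probe set at 0.31, and MYH9 had a difference of -0.16 in RMA and 0.49 in MAS5.

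The muscle actins and the calponin family had no counted member. ACTA2, which encodes smooth muscle alpha-actin, had RMA values of 5.33 for CD133+ and 5.07 for CD133-, and only the CD133+ value reached the floor. Its MAS5 intensities of 38.23 and 50.34 went the other way. ACTG2, the enteric smooth muscle actin with 2 CArG boxes before its start, had values of 5.08 and 5.02, and CNN1, the smooth muscle calponin, 4.62 and 4.59. Both genes were below the floor in both populations. TAGLN, which encodes the smooth muscle protein SM22 and is a standard SRF target, had values of 6.37 and 6.44, and its 3 probe sets ran from -0.07 to 0.12. Its non-muscle relative TAGLN2 had values of 9.77 and 9.32, a difference of 0.45 in RMA and 0.76 in MAS5, with the second probe set at 0.33. The non-muscle calponin CNN3 had values of 9.77 for CD133+ and 10.30 for CD133-, a difference of -0.52, with its other probe set at 0.20. CNN2, whose promoter holds a CArG box, had a difference of -0.18. CALD1, the gene of caldesmon, had a difference of 0.45, and its 9 probe sets above the floor ran from -0.20 to 0.61.

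Of the tropomyosins, which form a coil along the actin filament, TPM2 and TPM1 lay on opposite sides of 0. TPM2 had RMA values of 11.29 for CD133+ and 10.82 for CD133-, a difference of 0.47 in RMA and 0.72 in MAS5, and its 4 probe sets ran from 0.00 to 0.47. TPM1 had values of 9.28 and 9.53, a difference of -0.25, and all 5 of its probe sets above the floor were lower in CD133+, from -0.59 to -0.20. TPM4, with a CArG box in its promoter, had values of 9.60 and 9.66, and its 4 probe sets above the floor ran from -0.28 to 0.26. None of the 3 was counted. The probe sets of a tropomyosin gene can read different splice forms, which the annotation used here does not separate.

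The crosslinkers bind filaments into bundles and nets. The alpha-actinin gene ACTN1 had a difference of 0.08 in RMA and 0.11 in MAS5. ACTN4, the other non-muscle alpha-actinin, had -0.07 in RMA and 0.73 in MAS5, with opposite signs. The 4 probe sets of ACTN1 ran from -0.33 to 0.27. PALLD encodes palladin, a scaffold along stress fibres, and had RMA values of 8.68 for CD133+ and 9.15 for CD133-. Its difference was -0.46 in RMA and -0.94 in MAS5, and all 3 of its probe sets above the floor were lower in CD133+, from -0.46 to -0.34. LIMA1, which encodes the filament-stabilising protein EPLIN, had a difference of -0.08. PALLD was thus the crosslinker farthest from 0, and it missed the count rule in both processings.

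Among the adhesion genes besides CSRP1, VCL was on the CD133+ side and PXN on the CD133- side. VCL encodes vinculin, which links talin to actin, and had RMA values of 10.75 for CD133+ and 10.29 for CD133-. Its difference was 0.46 in RMA and 0.64 in MAS5. TLN1, the gene of talin, had differences of 0.31 and 0.38 in its probe sets above the floor, and ZYX, the gene of zyxin, 0.26 and 0.51. PXN encodes paxillin, the adaptor at integrin adhesions, and had RMA values of 6.97 for CD133+ and 7.69 for CD133-, with MAS5 intensities of 309.2 and 457.5. Its difference was -0.57 in MAS5 and -0.72 in RMA, the lowest RMA difference of the 36 genes above the floor, and it missed the count rule in both. Its other probe set was below the floor at -0.18. PDLIM1, PDLIM7 and LASP1, which carry LIM domains, had differences of 0.16, 0.11 and -0.16. Of the 8 adhesion genes, with CSRP1 included, 6 were above 0 and 2 below, with a median of 0.21. Over all genes above the floor, 48.2% were above 0.

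The genes of filament turnover lay close to 0. CFL1, the gene of cofilin, which severs filaments, had RMA values of 13.62 for CD133+ and 13.32 for CD133-, and its 3 probe sets above the floor ran from 0.18 to 0.48. Its muscle form CFL2 had a difference of 0.04 in RMA, within 0.0026 over its 3 probe sets. The profilins PFN1 and PFN2, which feed monomers to growing ends, had differences of 0.06 and -0.03. GSN, the gene of gelsolin, had a difference of 0.27. VIL1, the gene of villin, which bundles actin in the microvilli of epithelia, had values of 6.88 and 7.05. CAPG, a capping protein, had RMA values of 5.20 and 5.39, near the floor, and MAS5 intensities of 56.31 and 136.5, which is a MAS5 difference of -1.28 beside one of -0.18 in RMA. EZR and MSN, which encode ezrin and moesin and link actin to the membrane, had differences of 0.12 and 0.16. RDX, the gene of radixin and the third protein of that family, is no member and had RMA values of 10.18 for CD133+ and 11.20 for CD133-. Its differences of -1.02 in RMA and -0.93 in MAS5 pass the 2-fold line in RMA and miss it in MAS5.

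SRF itself, whose own promoter holds 2 CArG boxes, had RMA values of 8.05 for CD133+ and 7.93 for CD133- and MAS5 intensities of 673.9 and 587.6. The difference was 0.12 in RMA and 0.20 in MAS5, and its second probe set had -0.09. The level of the SRF transcript thus differed by less than 0.35, the SD of the gap between probe sets of a gene. The 6 genes with a printed CArG box, ACTG2, MYLK, SRF, CNN2, TPM4 and ACTN1, had RMA differences from -0.18 to 0.18 in the probe sets that represent them. ACTG2 and MYLK were below the floor there and could not be counted, and the MYLK probe set at 1.18 is described above. None of the other 4 was counted, against 2.25% higher and 1.09% lower over all genes above the floor. At such shares 4 genes are too few for a count to differ, so nothing is read from it.

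**Figure D2:**
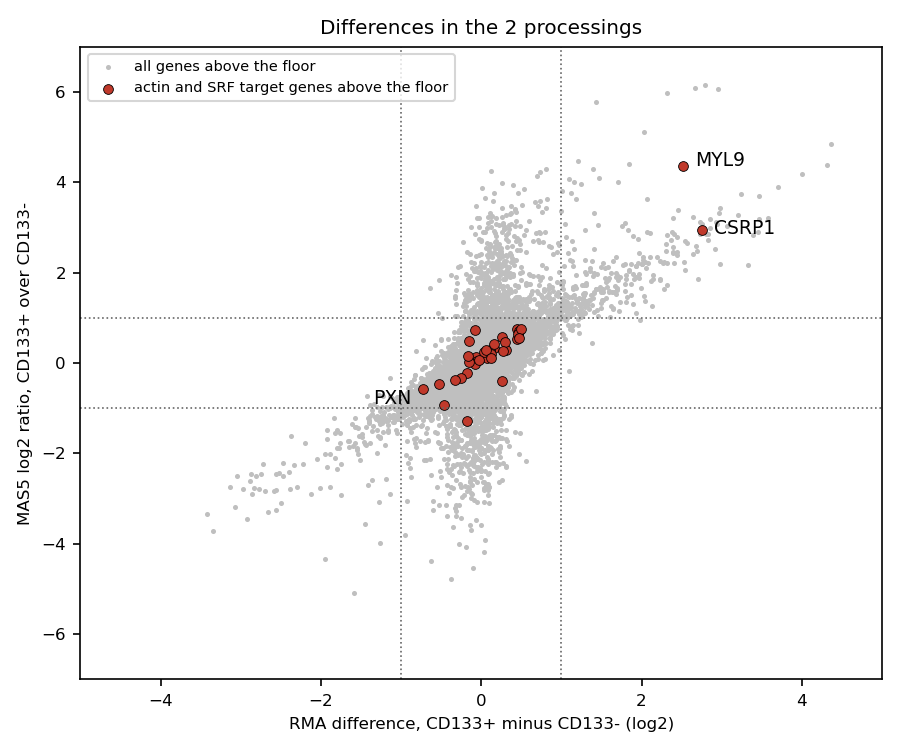
RMA difference (log2, horizontal) against MAS5 log2 ratio (vertical), CD133+ over CD133-, for all 13116 genes above the floor in grey and the 36 actin and SRF target genes above it in red, with dotted lines at 2-fold. CSRP1 and MYL9 stand in the upper right corner field, PXN lies at -0.72 and -0.57, and 34 of the 36 red points lie between the vertical lines.

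With 1.5-fold in both processings as the limit, CSRP1 and MYL9 were again the genes counted as higher and none was lower, against 5.32% and 4.17% of all genes. With 2-fold in RMA alone the same genes were counted, against 2.39% higher and 1.31% lower. With 2-fold in MAS5 alone they were again the higher ones and CAPG was lower, against 7.65% and 5.6% of all genes. RMA and MAS5 had the same sign in 28 of the 36 genes and opposite signs in 8. At least 0.40 on the RMA scale, a limit chosen after the values were seen, was reached in favour of CD133+ by 8 of the 36 genes (22.2%), against 11.4% of all genes above the floor. These were CSRP1, MYL9, MYL6, MYL12A, TPM2, VCL, TAGLN2 and CALD1. The same size in favour of CD133- was reached by PXN, CNN3 and PALLD, which is 8.33%, against 11.1% of all genes. Both the genes and this limit were chosen with these values known, so nothing is read from these shares. The 39 genes have 117 probe sets, of which 90 were above the floor and 3 passed the count rule, those of CSRP1 and MYL9 that represent the genes and the one of MYLK described above. In 23 genes more than 1 probe set was above the floor. All of them lay on the same side of 0 in 10 of these genes and did not in 13. The 10 were MYL9, CFL1, CFL2, GSN, TAGLN2, TLN1 and ZYX on the CD133+ side and TPM1, PALLD and LIMA1 on the CD133- side. TPM2 is among the 13 because 1 of its probe sets had a difference of 0. Agreement in sign was not counted over all genes, so nothing is read from these counts.

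**Figure D3:**
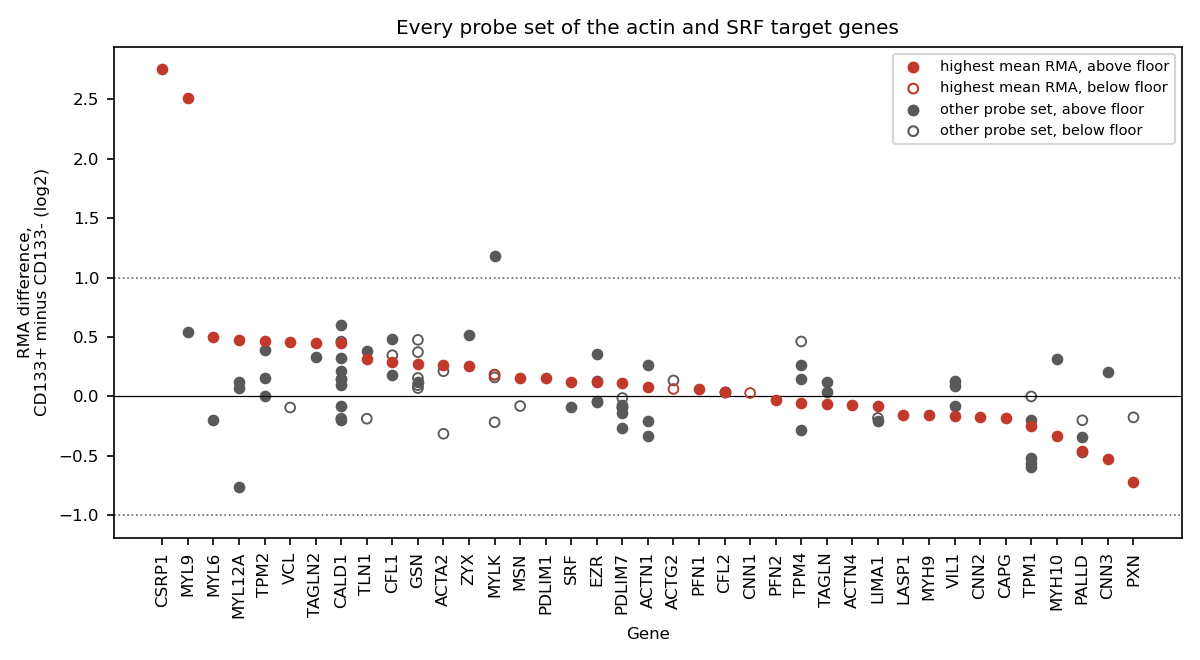
RMA difference (log2) of each of the 117 probe sets of the 39 genes, ordered by the representing probe set in red, with other probe sets in grey, open circles below the floor and dotted lines at 2-fold. CSRP1 has 1 probe set at 2.75, MYL9 has 2.51 and 0.54, MYLK has a grey point at 1.18, and MYL12A spans -0.76 to 0.48.

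The regulators around SRF and actin were described by lists of other genes, none of them members. Of 8 SRF cofactors and their regulators, 6 were above the floor, none was counted, and the median RMA difference was -0.07. ELK3, a ternary complex factor, had 0.47, and MRTFA and MRTFB, the coactivators that bind actin monomers, had -0.35 and 0.03. Of 19 other targets of the MRTF branch, 10 were above the floor and none was counted, with a median of 0.09. CSRP2 had 0.77, MICAL2, an actin-oxidising enzyme, 0.48, and DES, the gene of desmin, 0.43, while CCN1 and CCN2, matricellular genes often used as readouts of MRTF and YAP, had -0.08 and 0.11. Of 9 targets of the ternary complex factor branch, 7 were above the floor and none was counted. In RMA all 7 were below 0, with a median of -0.44, while 48.2% of all genes above the floor were above 0. In MAS5 not all 7 were below 0. FOS, MCL1 and IER2 had differences of -0.90, -0.50 and -0.48 in RMA and -0.90, -0.21 and -0.33 in MAS5. The cytoplasmic actin gene ACTB had a difference of -0.12.

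The Arp2/3 complex nucleates branched actin. Of 14 genes of the complex, its activators and the coronin CORO1C, 12 were measured, none was counted, and the median was 0.25. ARPC1B, a subunit of the complex, had 0.78, whereas the activator WASF3 and CORO1C had -0.96 and -0.67.

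Capping, severing and monomer binding genes had a median of 0.11 over 14 of 16 and none counted, with SVIL at 0.71, CAPZB at 0.51 and DSTN at 0.43. Bundling and membrane linker genes had a median of -0.03 over 11 of 12 and none counted. RDX had -1.02 and NHERF1, the scaffold that ezrin binds, -0.75, while FSCN1, the gene of fascin, had 0.49. Other focal adhesion genes had a median of 0.16 over 15 of 16 and none counted, with FERMT1, the epithelial kindlin, at 0.86, PARVA at 0.68 with a MAS5 difference of -0.61, and TNS3 at 0.48. PARVA passed the floor only through CD133+, with RMA values of 5.62 for CD133+ and 4.94 for CD133-. Paralogs in the families of the members had a median of 0.02 over 16 of 20 and none counted, and RDX, CSRP2 and PDLIM2, at 0.48, were farthest from 0. CSRP2, RDX, MYH11 and TLN2 each stand in 2 of these lists. None of the genes in the 8 lists was thus counted in either direction, against 2.25% higher and 1.09% lower over all genes.

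**Figure D4:**
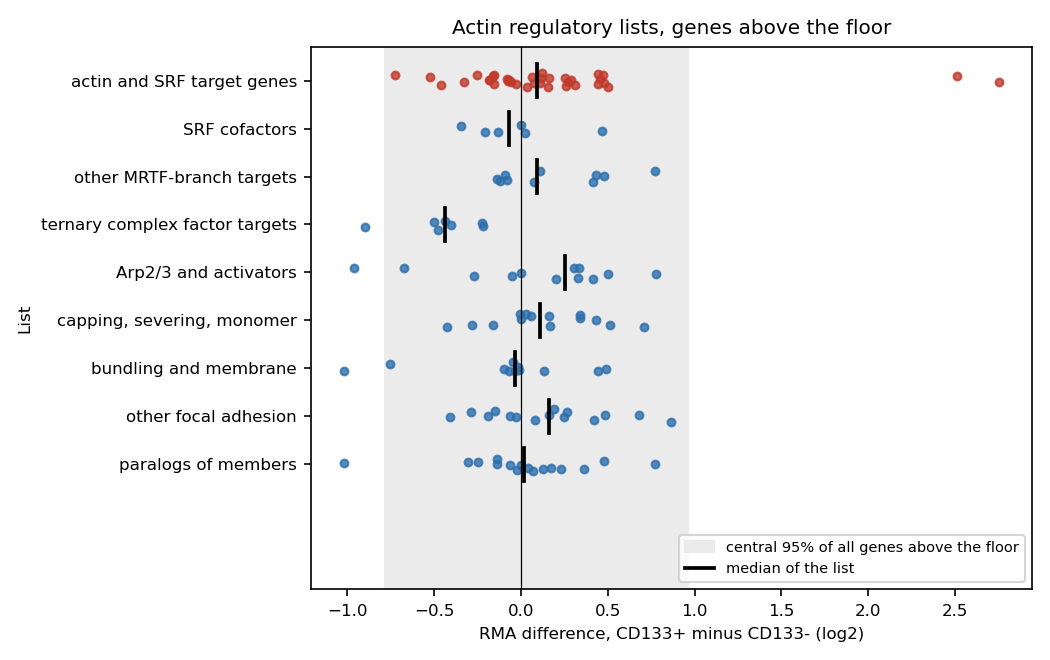
RMA difference (log2, horizontal) of each gene above the floor in the actin and SRF target set (red) and in 8 lists of related genes (blue), with a black bar at each median and a grey band for the central 95% of all genes, -0.78 to 0.96. CSRP1 and MYL9 lie right of the band, and RDX, WASF3 and FOS lie left of it. The 7 ternary complex factor targets all lie left of 0 with a median of -0.44, and the Arp2/3 list has a median of 0.25.

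PROM1, the gene of the sorted marker, differed in the direction of the labels and had RMA values of 10.35 for CD133+ and 6.04 for CD133-. Of 13 hepatocyte markers 11 were measured and all 11 were above the floor, with ALB, AFP and APOA1 counted as lower in CD133+ and none as higher. Over all genes above the floor, 1.09% were counted as lower and 2.25% as higher. The median RMA difference of the 11 markers was -0.28, with 8 below 0 and 3 above. Of 15 markers of smooth muscle, stellate cells or fibroblasts, 8 were above the floor and none was counted. Their summed MAS5 intensity over all 15 was 2196 in CD133+ and 1404 in CD133-, most of it from SMTN and COL1A1. The sum also holds the genes below the floor. MYOCD, COL1A2, COL3A1, PDGFRA, PDGFRB, LRAT and LUM were below the floor, LUM with RMA values of 4.54 and 2.01. MYH11, the smooth muscle myosin heavy chain, had 5.76 and 5.90, and DES and SMTN, also SRF targets, had 6.33 and 5.89 and 7.97 and 7.55. The 6 endothelial markers had a summed MAS5 intensity of 366.4 for CD133+ and 1002 for CD133-, most of it from PECAM1, which was counted as lower at RMA values of 6.11 and 7.87, and the 5 others were below the floor. Of 7 leukocyte markers 5 were measured, with sums of 290.5 and 286.3. Both populations come from the same line, so these lists describe the expression of marker genes and do not count other cell types. In bulk samples a change in the share of cells within a population cannot be told apart from a change per cell. This was not tested for CSRP1 and MYL9. The 3' over 5' ratios of the ACTB control probe sets were 1.04 in both MAS5 columns.

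CSRP1 and MYL9 lie on different chromosomes. Among the 4 genes above the floor on each side of MYL9 in the RefSeq order, differences ran from -0.16 to 0.14 and none was counted. Among the 8 around CSRP1 they ran from -0.16 to 1.11, and SHISA4, the second gene on one side, chosen after its values were seen, was counted as higher at 1.11 in RMA and 2.28 in MAS5. LMOD1, the smooth muscle leiomodin gene beside it, had a difference of 0.08.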

How the data were processed

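The MAS5 columns hold linear intensity values and the RMA columns hold log2 values, both as the authors deposited them. The submitters' processing notes list GCOS, MAS5 and RMA. Tool versions, the arrays that were normalized together, and whether 1 array gave both columns of a population are not stated there or in the labels, so the columns counted as 2 processings and never as replicates. Of 54675 probe sets, 41097 had 1 gene in GEO's platform annotation, and 41043 of these took a symbol through their gene ID from a RefSeq table of GRCh38.p14. Differences, floor and counts were computed with pandas 2.3.3. The count rule was tested on simulated data with planted changes above the 2-fold limit. The floor was switched off there, so neither the floor nor changes near the limit were tested. The simulated noise was smaller than the gaps between probe sets of a gene here, so noise of that size was not tested. The members, the lists and the naming rule were chosen with earlier results of these data known. The naming rule allowed all members, and in each list the counted genes and up to 3 genes past the floor that lay farthest from 0 in RMA; CCN1, CCN2, ACTB, MRTFB, MYL12B, LMOD1, SHISA4 and the named cell type markers were added after their values were seen. Alternatives were the probe set choice, the floor, MAS5 alone, a MAS5 pseudocount of 50, centring and the fold. One further list is not reported here.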

Additional observations from a re-analysis of the deposited data

How the results depend on the processing

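With 1 array per population and processing, no replicate could be left out. No paired analysis was possible because the labels carry no replicate numbers. In all 9 alternatives the count of members higher in CD133+ was 2. CSRP1 was among the 2 in each of the 9, and MYL9 in 8. CSRP1 has 1 probe set, so the probe set alternatives could not change its difference. All alternatives reuse the array values with which the genes were chosen, so they are no independent check. Without _x_at and _s_at probe sets MYL9 was represented by the probe set with a difference of 0.54 and was not counted, while MYLK was, at 1.18. The count of members lower in CD133+ was 0, except for 1 in MAS5 alone, CAPG, where 5.6% of all genes were lower at 2-fold. The median difference of 0.09 was 0.25 in MAS5 alone, 0.25 once 50 had been added to each MAS5 value, and it lay between 0.04 and 0.11 in the other alternatives that give one. MYL9 had 1.53 with the median over probe sets and 3.16 in MAS5 with the pseudocount. Of 264 single values of members under alternatives, 24 moved by more than 0.35, the SD of the RMA gap between probe sets of a gene. The floor alternatives leave these values unchanged and centring shifts all by the same small amount, so those values could not move. Of the moves, 9 were in MAS5 alone and 8 in MAS5 with the pseudocount. In MAS5 alone the gap between probe sets had a larger SD, 0.79. The 24 of 264 is therefore no measure of stability.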
